A study of Mus musculus with 12 samples.

Results

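The genes described here encode the ligands that act on blood vessels and the receptors and junction proteins of the endothelial cells that line them. They are 10 genes given as a list of symbols, which was drawn up with earlier results of these data known, and each was found as 1 locus among the 44450 loci of the files. They are the ligands Vegfa, Vegfb, Angpt1 and Angpt2, the endothelial receptors Kdr, Flt1, Nrp1 and Tek, and the endothelial junction genes Pecam1 and Cdh5. All 10 were among the 12181 loci tested, which reached 1 FPKM or more in 3 or more of the 6 libraries (FPKM counts fragments relative to transcript length and to library size, so levels can be compared between genes per unit length). Only Angpt2 lay near that limit.

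Hearts came from C57BL/6N mice aged 11 weeks. The 3 knockout libraries are from mice labelled Mrpp3loxP/loxP, +/Ckmm, which carry both floxed alleles and a Cre transgene driven by the promoter of muscle creatine kinase, a gene of heart and skeletal muscle cells. The 3 control libraries are from Mrpp3loxP/loxP mice, which carry the same floxed alleles and no Cre, so an effect of Cre itself cannot be told apart from that of the deletion. Mrpp3 (now Prorp) encodes the nuclease subunit of mitochondrial RNase P, and the comparison asks what changes in the heart when it is lost from muscle. The whole series has 12 libraries, of which 6 PARE libraries, which map RNA ends, were not analysed here.

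VEGF-A is the main signal for the growth and survival of blood vessels, and in the heart it is made largely by muscle cells. It acts on endothelial cells through the tyrosine kinase VEGFR2, the product of Kdr, while VEGFR1 (Flt1) binds it tightly and limits how much reaches VEGFR2, and neuropilin 1 (Nrp1) is a co-receptor. The angiopoietins form a second system, in which angiopoietin 1, made by muscle and perivascular cells, activates the endothelial receptor TIE2 (Tek) and keeps vessels quiet and tight, and angiopoietin 2, made by endothelial cells, can oppose it. CD31 (Pecam1) and VE-cadherin (Cdh5) join endothelial cells to each other and serve as markers of them.

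In the whole data set, Prorp had 0.441, 0.701 and 0.555 FPKM in the knockout libraries, against 3.49, 2.64 and 3.23 FPKM in the control libraries, as the labels say. The files give no read totals. Judged from the smallest values, the knockout libraries were 2.06 to 2.57 times as deep as control replicate 1, and the other controls 1.32 and 1.35 times. Of the tested loci, 16.1% were higher and 19.5% lower in knockouts (limma, adjusted p under 0.05). When every library was scaled to one sum of FPKM, 26.5% were higher and 11.5% lower, and the median log2 ratio of all loci was 0.20, against -0.02 unscaled. Knockout replicate 2 stood apart in transcripts of atrial muscle and blood. The summed FPKM of 7 atrial markers was 3813 in it, against 131 and 17.6 in the other knockouts and at most 18.9 in controls, and that of 11 blood cell markers was 21943, against 637 and 2030 in the other knockouts and 1591 to 2925 in controls. Calls of the 10 genes that change without that library are given with each gene, and those of the lists with each list. In RNA from whole hearts, fewer cells of a type and less RNA per cell cannot be told apart.

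Most of the ligands were lower in the knockout heart, and neither junction gene was called. Of the 10 genes, 4 fell and 0 rose: Angpt1 by far the most, and Vegfb, Nrp1 and Vegfa by smaller amounts. By role, 3 of 4 ligands, 1 of 4 receptors and 0 of 2 junction genes were called lower, where 19.5% of all loci were. Fold changes are knockout over control as log2(FPKM + 0.5), where the added constant makes changes of low genes look smaller. Their median was -0.64 for the ligands, -0.35 for the receptors and 0.09 for the junction genes, and -0.02 for all tested loci. In 6 of the 10 genes (Vegfa, Vegfb, Angpt1, Kdr, Nrp1 and Tek) every knockout library lay below every control library, a pattern seen in 28.7% of all tested loci.

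**Figure D1:**
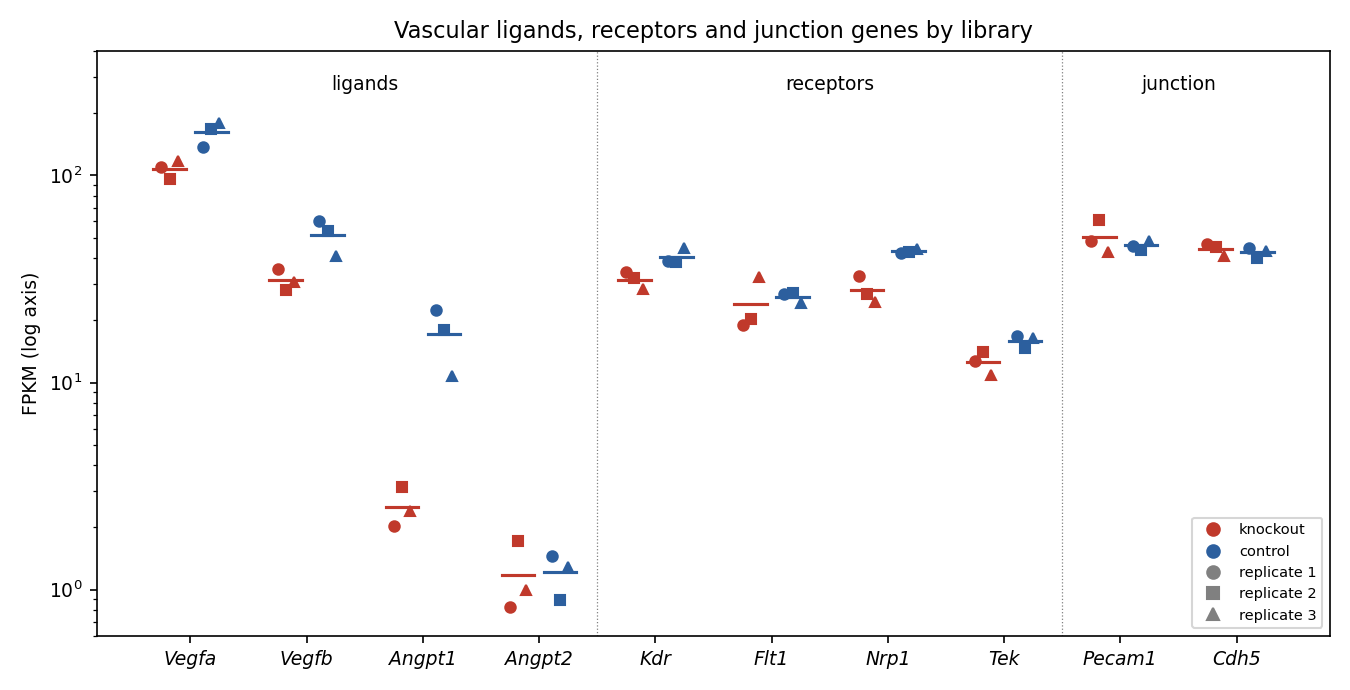
FPKM of each gene (log axis) in each of the 3 knockout libraries (red) and 3 control libraries (blue), with the group mean as a bar and the replicate number as the marker shape. The 2 groups are widest apart for Angpt1, whose knockout libraries lie between 2.03 and 3.13 FPKM and whose control libraries lie between 10.8 and 22.5 FPKM, and they overlap for Angpt2, Flt1, Pecam1 and Cdh5.

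Angpt1 showed the largest difference of the 10 genes. It had 2.03, 3.13 and 2.39 FPKM in the knockout libraries and 22.5, 17.9 and 10.8 FPKM in the control libraries. The controls themselves spanned a wide range, yet the lowest of them was still far above the highest knockout. The mean was 2.52 ± 0.559 FPKM in knockouts and 17.1 ± 5.89 FPKM in controls (SD, n = 3 each), a log2 ratio of -2.50 (SE 0.27, adjusted p = 0.00083 in limma). Its fold change ranked 57 from the lowest among the 12181 tested loci. The call was kept in all 18 alternative analyses, with log2 fold changes between -2.79 and -2.27, and stood at -2.64 without knockout replicate 2. The gene spans chr15:42424667-42676977 (GRCm38).

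Angpt2, which encodes the angiopoietin that can block TIE2, was the least abundant of the 10 genes. It had 0.827, 1.71 and 1.00 FPKM in the knockout libraries and 1.45, 0.896 and 1.29 FPKM in the control libraries. The groups overlapped, and the log2 fold change of -0.05 had a 95% interval of -0.62 to 0.52 (adjusted p = 0.89 in limma). It turned positive in 5 of 18 alternatives, among them scaling to one sum. The interval holds both falls and rises, so neither a direction nor the absence of a change was shown. The gene spans chr8:18690263-18741562 (GRCm38).

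Vegfa was the most abundant of the 10 genes in every library. It had 109, 96.6 and 117 FPKM in the knockout libraries and 137, 168 and 180 FPKM in the control libraries. All knockouts lay below all controls, with means of 108 ± 10.3 FPKM in knockouts and 162 ± 22.4 FPKM in controls (SD, n = 3 each). The log2 fold change was -0.58 (SE 0.16, adjusted p = 0.027 in limma). The call was lost without knockout replicate 1, control replicate 2 or control replicate 3 (adjusted p = 0.066, 0.11 and 0.10 in limma) and after scaling to one sum (log2 fold change -0.35, adjusted p = 0.054 in limma), where it lay 0.55 below the median of all loci (log2). The gene spans chr17:46016993-46032377 (GRCm38).

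Vegfb encodes a VEGF family member abundant in heart, which binds VEGFR1 and neuropilin 1 but not VEGFR2. It had 35.4, 27.9 and 30.6 FPKM in the knockout libraries and 60.4, 53.7 and 40.7 FPKM in the control libraries. The groups did not overlap, though control replicate 3 came within a few FPKM of knockout replicate 1. Means were 31.3 ± 3.80 FPKM in knockouts and 51.6 ± 10.0 FPKM in controls (SD, n = 3 each), a log2 ratio of -0.70 (SE 0.18, adjusted p = 0.019 in limma). The call was lost without control replicate 1 or 2 (adjusted p = 0.071 and 0.074 in limma) and after scaling to one sum (log2 fold change -0.48, adjusted p = 0.097 in limma). The gene spans chr19:6982472-6987651 (GRCm38).

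Markers of cardiomyocytes, which are known to make Vegfa, Vegfb and part of the Angpt1 of the heart, were lower in part. Of 15 such markers 9 were lower and 0 higher in knockouts (median log2 -1.43), where 19.5% of all loci were lower and 16.1% higher. With any 1 library left out, 3 of the 9 lower calls were kept (Ryr2, Pln and Tnni3, whose locus also names Dnaaf3). The 6 markers that did not pass included Myh7, which encodes the slow myosin heavy chain and is named after its values were seen. Myh7 lay the other way, with 87.4, 24.0 and 391 FPKM in the knockout libraries and 6.30, 8.91 and 43.2 FPKM in the control libraries (log2 fold change 2.74, adjusted p = 0.078 in limma). Without control replicate 1, 2 or 3 the number of markers lower was 6, 3 and 3. Over all loci the number lower was then 1529, 1409 and 1470, against 2377 with all libraries. Without knockout replicate 2 the list had 1 higher and 10 lower (median -1.05), and after scaling to one sum 1 higher and 7 lower, Myh7 being the higher one in both. Their summed level was 10415 to 24040 FPKM in the knockout libraries and 44538 to 51804 FPKM in the control libraries, and none was at 0 in any library. The part of this in the lower ligands was not tested.

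For the genes that fell, the 250 bases before a transcript start are shown where the RefSeq promoter table (GRCm38.p6) holds them, which is for Vegfa, Vegfb and Nrp1. The bases for Vegfa and Vegfb lie just outside the span of the gene, and those for Nrp1 lie within its span. They are shown because these genes moved in the same direction and because Vegfa is a textbook target of hypoxia-inducible factors and of SP1. Capitals mark the GC box GGGCGG, the letters bound by SP1, on either strand. The windows are chr17:46032378-46032627 (minus strand) for Vegfa, chr19:6987652-6987901 (minus strand) for Vegfb and chr8:128358823-128359072 (plus strand) for Nrp1, each written 5′ to 3′ along its gene.
Vegfa: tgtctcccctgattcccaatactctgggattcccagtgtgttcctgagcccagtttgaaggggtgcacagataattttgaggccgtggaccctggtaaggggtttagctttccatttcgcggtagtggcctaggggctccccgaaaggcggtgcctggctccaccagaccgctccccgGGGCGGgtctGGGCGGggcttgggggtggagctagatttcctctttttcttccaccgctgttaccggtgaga
Vegfb: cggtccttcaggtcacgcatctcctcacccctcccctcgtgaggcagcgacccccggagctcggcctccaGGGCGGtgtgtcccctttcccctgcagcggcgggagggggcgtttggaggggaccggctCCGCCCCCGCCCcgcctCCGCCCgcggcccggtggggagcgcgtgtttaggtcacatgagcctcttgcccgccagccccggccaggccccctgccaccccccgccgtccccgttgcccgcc
Nrp1: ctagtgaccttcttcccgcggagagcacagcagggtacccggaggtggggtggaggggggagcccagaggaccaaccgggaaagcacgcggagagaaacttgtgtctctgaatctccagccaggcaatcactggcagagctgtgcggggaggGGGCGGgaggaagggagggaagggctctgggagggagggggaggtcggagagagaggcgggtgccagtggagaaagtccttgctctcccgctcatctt

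The GC box was found 2 times in the window of Vegfa, 4 times in that of Vegfb, where 2 of the matches adjoin, and 1 time in that of Nrp1. It was also found in the windows of Kdr (2) and Flt1 (3) and not in that of Tek, and 32.7% of the 32851 windows contain it. Each window counted here is the 250 bases before a transcript start, and the 50 bases after it were not searched. The windows of Kdr and Flt1 lie within the spans of these genes, and that of Tek lies mostly within its span. The hypoxia response cores ACGTG and GCGTG, searched on both strands, were not found at the start of Vegfa shown here, and each was found 1 time at a second start of Vegfa in the table. GCGTG was found 2 times each in the windows of Vegfb and Kdr, 1 time each in those of Nrp1 and Flt1 and not in that of Tek, and 28.2% of all windows hold it, against 16.6% for ACGTG. The element TGATGNAA, read by ATF4 with its partners, was found in none of the windows of these 6 genes and in 3.45% of all windows. The full cyclic AMP response element TGACGTCA was found 1 time, in the window of Flt1, and in 1.55% of all windows. The ETS core GGAA, common to endothelial promoters, was found in all 6, as in 93.4% of all windows. Each match, or the lack of one, describes the letters of the window only, and sequence further upstream was not searched.

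Among the receptors, Nrp1 fell, and the others lay lower by amounts that did not pass the test, Flt1 turning slightly higher after scaling to one sum. Nrp1 had 32.8, 26.8 and 24.4 FPKM in the knockout libraries and 42.4, 42.8 and 44.3 FPKM in the control libraries. The controls were tightly grouped and every knockout lay well below them. Means were 28.0 ± 4.31 FPKM in knockouts and 43.2 ± 1.02 FPKM in controls (SD, n = 3 each), a log2 ratio of -0.63 (SE 0.14, adjusted p = 0.012 in limma). The call was kept with any 1 library left out and lost after scaling to one sum (log2 fold change -0.40, adjusted p = 0.077 in limma), where it lay 0.60 below the median of all loci (log2). The locus also carries the name of the microRNA gene Mir1903, so fragments of both share the value, and it spans chr8:128358591-128505476 (GRCm38) for Nrp1.

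Kdr, which encodes the main signalling receptor for VEGF-A, had 34.1, 31.9 and 28.2 FPKM in the knockout libraries and 38.4, 38.3 and 44.6 FPKM in the control libraries. The groups did not overlap, but the log2 fold change of -0.36 (95% interval -0.66 to -0.06) did not pass over all loci (adjusted p = 0.064 in limma) in the reported analysis or in any of the 18 alternatives. Tek, which encodes the angiopoietin receptor TIE2, had 12.7, 14.02 and 10.9 FPKM in the knockout libraries and 16.7, 14.7 and 16.3 FPKM in the control libraries. These groups did not overlap either, with a log2 ratio of -0.34 (95% interval -0.64 to -0.03, adjusted p = 0.082 in limma). With knockout replicate 2 left out, Tek passed at -0.42 (adjusted p = 0.037 in limma), and it also passed with array weights (adjusted p = 0.034 in limma). Kdr spans chr5:75932827-75979072 and Tek chr4:94739086-94874976 (GRCm38).

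Flt1 encodes VEGFR1, which is also made as a soluble form that holds VEGF-A in the tissue, and a single value for the locus does not separate the forms. It had 19.0, 20.3 and 32.2 FPKM in the knockout libraries and 26.7, 26.9 and 24.3 FPKM in the control libraries. Knockout replicate 3 was the highest of all 6 libraries and the other knockouts were the lowest, so the log2 fold change of -0.16 had a wide 95% interval of -0.63 to 0.31 (adjusted p = 0.57 in limma). Without knockout replicate 3 it was -0.39 (adjusted p = 0.038 in limma), and after scaling to one sum it was 0.07. The gene spans chr5:147561604-147726438 (GRCm38).

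The junction genes did not differ beyond the spread between libraries. Cdh5 had 46.6, 45.3 and 41.0 FPKM in the knockout libraries and 44.7, 39.9 and 43.3 FPKM in the control libraries. The groups overlapped almost wholly, and the log2 fold change of 0.05 had a 95% interval of -0.22 to 0.33 (adjusted p = 0.74 in limma). Pecam1 had 48.5, 61.0 and 42.5 FPKM in the knockout libraries and 45.5, 43.9 and 48.4 FPKM in the control libraries. Knockout replicate 2, the library with the highest atrial and blood sums, was the highest, and it was also highest in the summed pan-endothelial genes. Platelets and leukocytes also make CD31, and their part in the level of Pecam1 was not tested. The log2 fold change of Pecam1 was 0.13 (95% interval -0.24 to 0.49, adjusted p = 0.56 in limma), and -0.01 without knockout replicate 2. After scaling to one sum the fold changes were 0.28 for Cdh5 and 0.36 for Pecam1 (adjusted p = 0.15 and 0.16 in limma), of which 0.09 and 0.16 lay above the median of all loci. Cdh5 spans chr8:104101613-104144504 and Pecam1 chr11:106654213-106715281 (GRCm38).

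**Figure D2:**
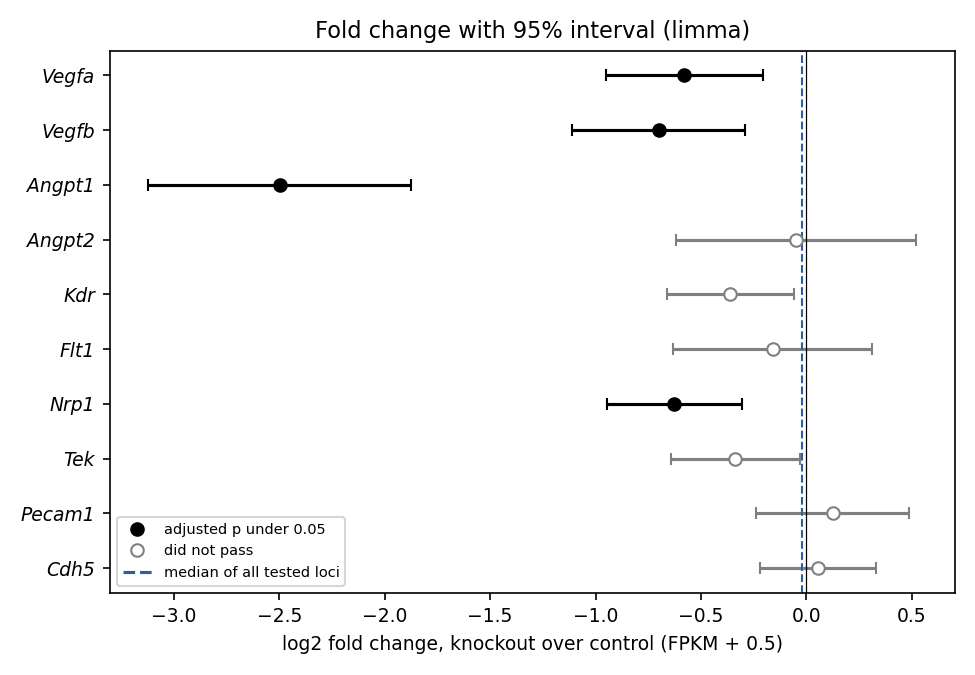
Log2 fold change, knockout over control with its 95% interval from limma, for each gene (filled points passed an adjusted p of 0.05). The interval of Angpt1, from -3.12 to -1.87, lies below that of every other gene, and the intervals of Angpt2, Flt1, Pecam1 and Cdh5 include 0.

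Vegfb moved furthest in the order of the levels, to position 5 in knockouts, against position 2 in controls. In knockouts it ran Vegfa, Pecam1, Cdh5, Kdr, Vegfb, Nrp1, Flt1, Tek, Angpt1 and Angpt2, and in controls Vegfa, Vegfb, Pecam1, Nrp1, Cdh5, Kdr, Flt1, Angpt1, Tek and Angpt2, by mean FPKM. Neighbours whose libraries overlapped were Pecam1 and Cdh5, and each step from Kdr to Flt1, in knockouts. In controls they were each step from Vegfb to Kdr, and Angpt1 and Tek. So Angpt1 stood well below its receptor Tek in knockouts (2.52 ± 0.559 FPKM for Angpt1 and 12.5 ± 1.59 FPKM for Tek) and level with it in controls (17.1 ± 5.89 FPKM for Angpt1 and 15.9 ± 1.09 FPKM for Tek; SD, n = 3 each).

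Ratios taken within a library do not depend on scaling between libraries, and 5 were compared. The ratio of Angpt2 to Angpt1 was 0.407, 0.547 and 0.418 in the knockout libraries and 0.0645, 0.0500 and 0.120 in the control libraries, higher in every knockout. The difference was 2.64 on the log2 scale (exact two-sided permutation p = 0.10, the smallest that 3 against 3 can give, and 0.25 adjusted over the 5 ratios). Of the 2 genes in this ratio, Angpt1 passed the test and Angpt2 did not. The ratio of Tek to Cdh5 was 0.274, 0.309 and 0.265 in the knockout libraries and 0.375, 0.368 and 0.378 in the control libraries. This receptor was thus lower relative to the junction gene in every knockout, by 0.40 on the log2 scale (log2 difference -0.40, exact permutation p = 0.10, adjusted 0.25).

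The remaining ratios overlapped between groups. Vegfa to Kdr was 3.46 ± 0.601 in knockouts and 3.99 ± 0.421 in controls (SD, n = 3 each; exact permutation p = 0.30, adjusted 0.50). Vegfa to Vegfb was 3.46 ± 0.368 in knockouts and 3.27 ± 1.08 in controls, and Flt1 to Kdr was 0.780 ± 0.317 in knockouts and 0.648 ± 0.0893 in controls (exact permutation p = 0.80 for each, adjusted 0.80). Averaged as log2(FPKM + 0.5), the 4 ligands minus the 6 receptor and junction genes gave -1.47, -1.31 and -1.32 in the knockout libraries and -0.47, -0.58 and -0.82 in the control libraries. Without Angpt1 the same quantity was -0.77, -0.72 and -0.66 in knockouts and -0.44, -0.49 and -0.56 in controls, so most of the gap came from Angpt1. These averages are a description of chosen genes and carry no test.

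**Figure D3:**
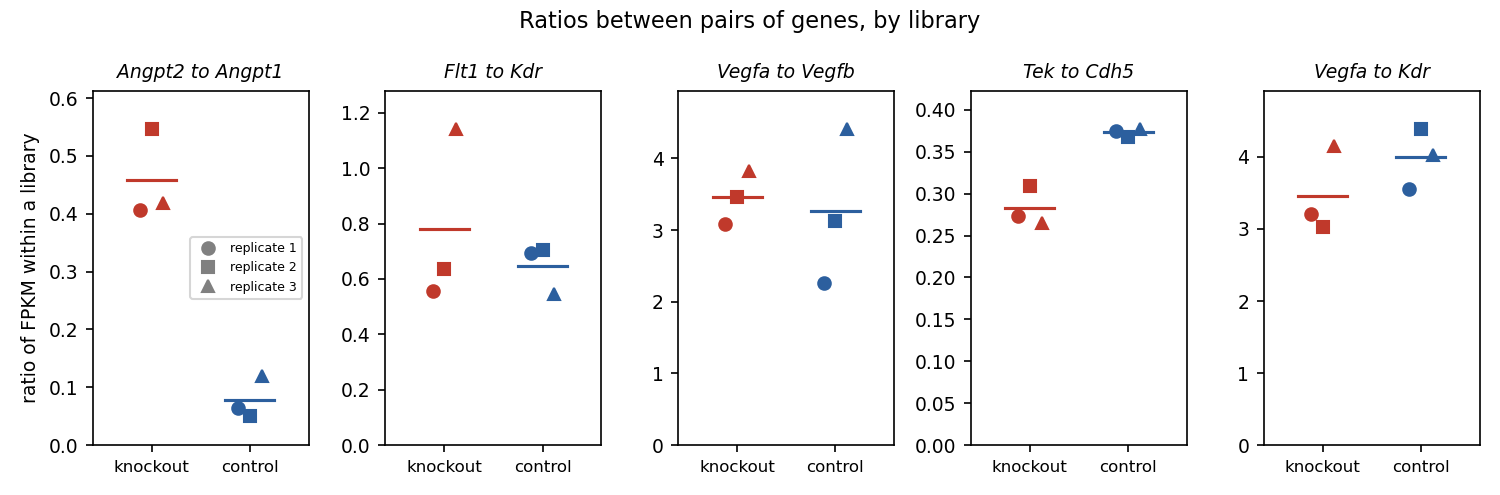
Ratio of FPKM between 2 genes within each library, for 5 pairs, in knockout (red) and control (blue) libraries, with the group mean as a bar and the replicate number as the marker shape. Angpt2 to Angpt1 is above 0.40 in every knockout and at most 0.120 in controls, Tek to Cdh5 is lower in every knockout, and the other ratios overlap.

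Other genes of the VEGF and angiopoietin pathways changed in both directions. Counts for this list and those after it stand beside 16.1% of all loci higher and 19.5% lower, of which 1070 higher and 1254 lower calls were kept with any 1 library left out. Of 19 tested, 4 rose and 2 fell, with a median (log2) of -0.06. The number higher was 2 without knockout replicate 1, control replicate 1 or control replicate 2, and without knockout replicate 2 the list had 3 higher, 3 lower and a median of 0.003. With any 1 library left out, 2 of the rises (Svep1 and Figf) and 2 of the falls (Grb14 and Pgf) were kept. Svep1, a large matrix protein that in mice and zebrafish acts on lymphatic vessels and binds the receptor TIE1, had 17.4, 16.2 and 15.5 FPKM in knockouts and 2.98, 2.85 and 2.79 FPKM in controls (log2 fold change 2.32, SE 0.11, adjusted p = 4.7e-05 in limma). The 2 groups lay far apart with little spread in either. Figf, which encodes VEGF-D, a ligand of VEGFR3, had 1.40, 2.56 and 1.71 FPKM in knockouts and 0.143, 0.721 and 0.706 FPKM in controls (log2 fold change 1.26, adjusted p = 0.018 in limma). Every control lay under the limit of 1 FPKM, so Figf entered the test only through its knockout values, which limits what its call can show.

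Pgf encodes placental growth factor, which binds VEGFR1, and had 0.956, 1.68 and 1.41 FPKM in knockouts and 3.10, 2.91 and 2.68 FPKM in controls (log2 fold change -0.89, SE 0.18, adjusted p = 0.0092 in limma). It fell as the other VEGFR1 ligands Vegfa and Vegfb did, and it is named here after its values were seen. Grb14, an adaptor that binds activated tyrosine kinase receptors such as the insulin receptor, averaged 29.6 ± 4.63 FPKM in knockouts and 79.4 ± 9.10 FPKM in controls (SD, n = 3 each; log2 fold change -1.41, adjusted p = 0.00094 in limma). The receptor genes Tie1 (20.5 ± 2.89 FPKM in knockouts and 23.1 ± 1.79 in controls) and Flt4, which encodes VEGFR3 (log2 fold change 0.04), did not pass (adjusted p = 0.36 and 0.79 in limma). Neither did Ptprb, which encodes the endothelial phosphatase that acts on TIE2 and VE-cadherin (adjusted p = 0.80 in limma), nor Nos3, the endothelial nitric oxide synthase (adjusted p = 0.72 in limma). These 4 were also named after their values were seen.

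Pan-endothelial genes other than the junction genes lay at similar levels in both groups. Of 31 tested, 1 rose and 4 fell, with a median (log2) of 0.00. Their summed level was 494 to 669 FPKM in the knockout libraries and 543 to 599 FPKM in the control libraries, so the groups overlapped, and knockout replicate 2 was the highest and knockout replicate 3 the lowest. The calls kept with any 1 library left out were those of Sox17, a transcription factor of arterial endothelium, and Jam2, an endothelial adhesion molecule. Sox17 had 6.54, 7.78 and 7.84 FPKM in knockouts and 4.05, 2.93 and 3.79 FPKM in controls (log2 fold change 0.95, adjusted p = 0.0033 in limma). Jam2 had 27.2, 25.04 and 26.4 FPKM in knockouts and 46.3, 39.5 and 47.8 FPKM in controls (log2 fold change -0.75, adjusted p = 0.0038 in limma). The lower calls of Ushbp1, Arhgef15 and Robo4 were each lost with at least 1 library left out. The number lower was 1 without control replicate 1 or 3 and after scaling to one sum, and 2 without control replicate 2, without knockout replicate 3 the numbers were 3 higher and 3 lower, and without knockout replicate 2 they were 1 and 5 (median -0.11).

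Centring each library on the mean of these pan-endothelial genes, an analysis added after the data were seen, asks whether the 10 genes differ relative to the endothelium. The log2 fold change of Angpt1 was then -2.53 (adjusted p = 0.00032 in limma). Those of Nrp1, Vegfb and Vegfa were -0.65, -0.73 and -0.61, against -0.63, -0.70 and -0.58 as reported, so these falls did not shrink. Their calls were nevertheless lost (adjusted p = 0.064, 0.077 and 0.16 in limma), where 12.0% of all loci were lower, against 19.5% as reported. Kdr and Tek stood at -0.39 and -0.37 (adjusted p = 0.23 and 0.18 in limma).

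Of 16 genes of capillary endothelium of the heart, 3 fell and 0 rose, a number lower close to the background share, with a median (log2) of -0.29. The falls were those of Slc28a2, Cxcl12 and Aqp7, the first 2 kept with any 1 library left out, while the fatty acid handling genes Fabp4, Fabp5, Cd36 and Gpihbp1, named after their values were seen, did not pass. Without knockout replicate 2 the list had 1 higher and 3 lower (median -0.11), and after scaling to one sum 2 higher and 3 lower (median -0.06). Slc28a2, a nucleoside transporter, averaged 5.40 ± 2.07 FPKM in knockouts and 14.01 ± 2.95 FPKM in controls (SD, n = 3 each; log2 fold change -1.34, adjusted p = 0.0079 in limma). Cxcl12, a chemokine of endothelial and stromal cells, averaged 16.9 ± 1.64 FPKM in knockouts and 26.6 ± 0.949 FPKM in controls (log2 fold change -0.64, adjusted p = 0.0056 in limma). Of 17 genes of tip cells and sprouting, 4 rose and 0 fell (median 0.15), of which Col4a2 was kept with any 1 library left out. Col4a2 encodes a chain of the type IV collagen of basement membranes, made by many cells, and averaged 98.8 ± 8.01 FPKM in knockouts and 56.5 ± 2.19 FPKM in controls (log2 fold change 0.80, adjusted p = 0.0032 in limma). The number higher was 1 without any one control, 2 without knockout replicate 1 and 8 without knockout replicate 3, and without knockout replicate 2 it was 3, with 2 lower and a median of 0.001. Dll4, the Notch ligand of tip cells, had a log2 ratio of 0.05 (adjusted p = 0.86 in limma).

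Genes listed as angiogenic growth factors and inhibitors outside these pathways moved both ways. Of 25 tested, 8 rose and 2 fell, with a median (log2) of 0.74, and 5 of the rises and both falls were kept with any 1 library left out. The rises kept were those of Cyr61, Ctgf, Serpinf1, Gdf15 and Wars, the last of which encodes a tRNA synthetase. Without knockout replicate 2 the median was 0.39, with 9 higher and 3 lower, without control replicate 1 the number higher was 5, and after scaling to one sum it was 11. Ctgf, a matricellular protein, averaged 97.3 ± 26.5 FPKM in knockouts and 15.1 ± 6.19 FPKM in controls (SD, n = 3 each; log2 fold change 2.68, adjusted p = 0.0010 in limma). Serpinf1, which encodes the angiogenesis inhibitor PEDF, averaged 41.3 ± 4.40 FPKM in knockouts and 14.3 ± 3.55 FPKM in controls (log2 fold change 1.53, adjusted p = 0.0017 in limma). Gdf15, a stress cytokine, was the largest rise of the list, with 56.2, 18.7 and 111 FPKM in knockouts and 0.221, 0.334 and 0.328 FPKM in controls (log2 fold change 5.96, adjusted p = 0.00052 in limma). Its controls all lay under the limit of 1 FPKM, so Gdf15 entered the test only through its knockout values. The falls were of fibroblast growth factors. Fgf1, named after its values were seen, averaged 32.5 ± 7.15 FPKM in knockouts and 75.3 ± 5.82 FPKM in controls (log2 fold change -1.22, adjusted p = 0.0028 in limma), and Fgf2 shares its locus with Bbs12 and another gene, so its value is uncertain.

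Hypoxia-inducible factor (HIF) and its targets, the best known regulators of Vegfa, did not move as one. Of 22 tested, 7 rose and 4 fell, with a median (log2) of -0.08, and 3 and 3 were kept with any 1 library left out. Hif1a, the oxygen-regulated subunit, had 72.4, 50.2 and 85.3 FPKM in knockouts and 26.2, 25.8 and 28.7 FPKM in controls (log2 fold change 1.32, SE 0.20, adjusted p = 0.0028 in limma). Its RNA was thus higher in every knockout, while Vegfa RNA was lower in every knockout. The HIF protein was not measured, and its part in the level of Vegfa was not tested. Slc2a1, the glucose transporter GLUT1, averaged 15.6 ± 5.78 FPKM in knockouts and 3.62 ± 0.395 FPKM in controls (SD, n = 3 each; log2 fold change 1.91, adjusted p = 0.0016 in limma). Ankrd37, a small HIF target, averaged 1.226 ± 0.0501 FPKM in knockouts and 4.61 ± 0.776 FPKM in controls (log2 fold change -1.56, adjusted p = 0.00060 in limma), and Egln1, the prolyl hydroxylase that marks HIF for degradation and is itself a HIF target, averaged 27.2 ± 5.21 FPKM in knockouts and 66.3 ± 9.15 FPKM in controls (log2 fold change -1.28, adjusted p = 0.0023 in limma). Without control replicate 1, 2 or 3 the number higher was 3, 4 and 4, and after scaling to one sum it was 9, with 3 lower and a median of 0.15. Without knockout replicate 2 the list had 7 higher and 4 lower with a median of 0.14.

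Of 7 other known activators of Vegfa, 1 rose and 3 fell, and after scaling to one sum 2 rose and 2 fell. With any 1 library left out, the rise of Atf4 and the falls of Ppargc1a and Esrrg were kept. The fall of Ppargc1b was lost without any one control. Atf4, a transcription factor of the integrated stress response, averaged 170 ± 63.0 FPKM in knockouts and 37.1 ± 2.69 FPKM in controls (SD, n = 3 each; log2 fold change 2.12, adjusted p = 0.0010 in limma). Ppargc1a encodes PGC-1α, a coactivator of mitochondrial genes that in mouse muscle also raises Vegfa without HIF. It had 18.4, 19.0 and 15.9 FPKM in knockouts and 69.1, 40.5 and 36.3 FPKM in controls (log2 fold change -1.37, adjusted p = 0.0048 in limma), below every control in every knockout. Esrrg, a nuclear receptor that works with it, averaged 6.85 ± 0.570 FPKM in knockouts and 13.1 ± 1.29 FPKM in controls (log2 fold change -0.89, adjusted p = 0.0023 in limma). Sp1 did not pass (log2 fold change -0.20, adjusted p = 0.27 in limma).

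Markers of other cells of the vessel wall and of the heart were read beside these results, and their part in them was not tested. Of 14 mural cell markers 2 rose and 3 fell (median -0.01, log2), with summed levels of 811 to 1065 FPKM in the knockout libraries and 836 to 866 FPKM in the control libraries, and none at 0. Abcc9, a subunit of potassium channels made in pericytes and in cardiomyocytes, fell (26.1 ± 6.44 FPKM in knockouts and 77.4 ± 3.38 FPKM in controls, SD, n = 3 each; adjusted p = 0.0013 in limma), and Cspg4, the pericyte proteoglycan NG2, rose (6.72 ± 0.749 FPKM in knockouts and 4.03 ± 0.435 FPKM in controls, adjusted p = 0.0087 in limma). Without any one control the mural calls were 1 higher and 1 lower, and without knockout replicate 2 they were 3 higher and 3 lower. Of 6 lymphatic loci 1 rose and 1 fell, the fall being that of Prox1, which cardiomyocytes also express, and the rise that of Pdpn, which passed in 1 of 6 analyses with a library left out (adjusted p up to 0.14 in limma) and not without knockout replicate 2. Ccl21a was at 0 in all libraries but one. Of 5 endocardial markers 1 fell and 0 rose (median 0.09, and -0.30 without knockout replicate 2), and no call of that list was kept with any 1 library left out. Fibroblast markers had 6 of 12 higher and 1 lower, with summed levels of 632 to 968 FPKM in knockouts and 719 to 902 FPKM in controls. Without any one control 4 fibroblast markers were higher and 0 lower. Without knockout replicate 2 the fibroblast list had 5 higher and 1 lower, with a median (log2) of 0.53, against 0.78 with all libraries. Macrophage markers had 7 of 11 higher and 0 lower, with summed levels of 247 to 280 FPKM in knockouts and 169 to 183 FPKM in controls. Without knockout replicate 2 the macrophage list had 6 higher and 0 lower. Of 7 blood cell markers tested 0 were called (median 0.51, and -0.85 with 1 lower without knockout replicate 2), and of 5 atrial markers 1 was higher and 1 lower, their sums standing apart in knockout replicate 2 as given above. The atrial number higher was 3 without knockout replicate 3 and 0 without any one control.

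**Figure D4:**
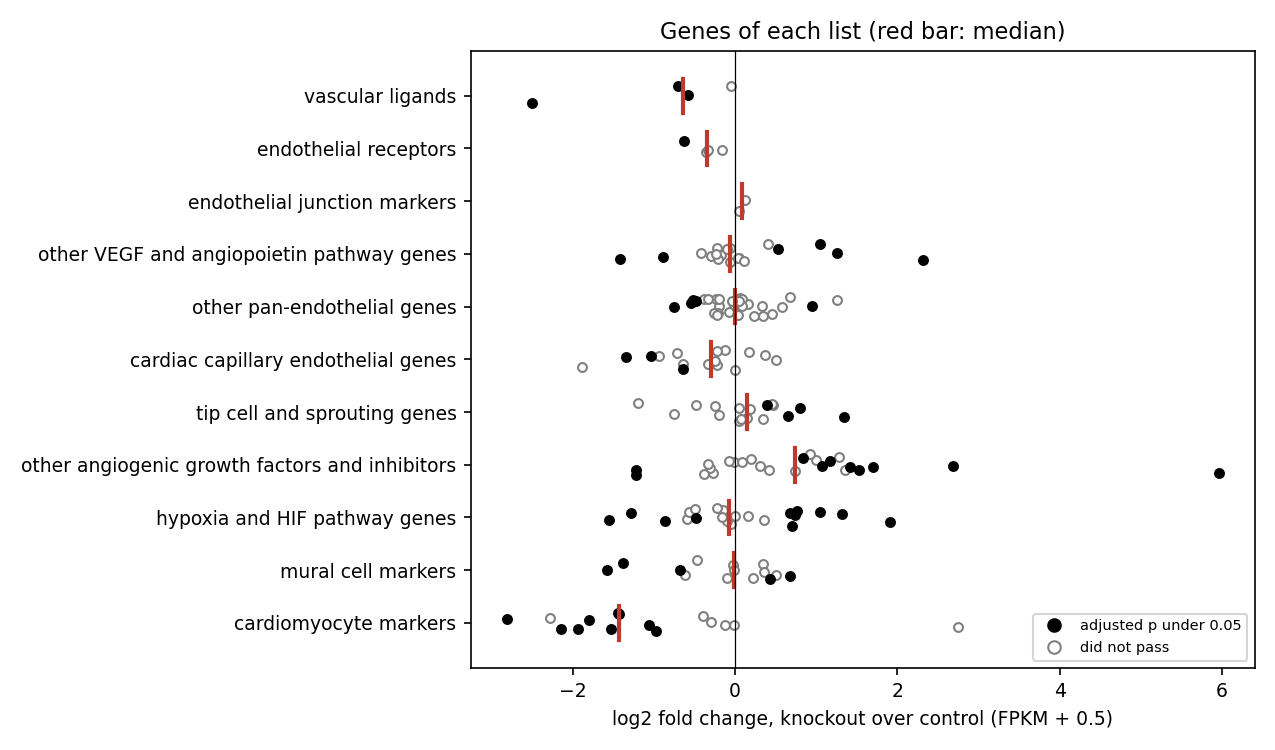
Log2 fold change, knockout over control of each tested gene of each list (filled points passed a limma adjusted p of 0.05), with the median of the list as a red bar. Cardiomyocyte markers lie mostly below 0 (median -1.43), the pan-endothelial genes gather around 0 (median 0.00), and the hypoxia list spreads to both sides.

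The loci whose pattern over the 6 libraries was closest to a given gene were found by the root mean square difference of log2(FPKM + 0.5) values centred on each gene's own mean. Closest to Vegfa were Zfp871 (0.0441), Zfp3 (0.0586) and Nbeal1 (0.0635), and closest to Cdh5 were Dhx16 (0.0329), Cdc42ep1 (0.0368) and Gm4944 (0.0409), each value a difference on the log2 scale. Zfp871, a zinc finger gene, had 7.82, 7.40 and 8.24 FPKM in knockouts and 10.4, 12.3 and 13.5 FPKM in controls, so like Vegfa it was lowest in knockout replicate 2 and highest in control replicate 3. This is a description over 6 libraries and carries no test.

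The calls of the 10 genes differed in how far they depended on the analysis. Angpt1 passed in 18 of 18 alternatives, Nrp1 in 15, Vegfb in 13 and Vegfa in 11. Flt1 and Tek, which did not pass in the reported analysis, each passed in 2, and Kdr, Angpt2, Pecam1 and Cdh5 in 0. The fold changes of the 4 genes that fell stayed below 0 in all 18. The share of all loci called lower, which is the background to these counts, was 19.6% without knockout replicate 2, 10.5% with scaling to one sum without mitochondrial loci and 27.6% with array weights.

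**Figure D5:**
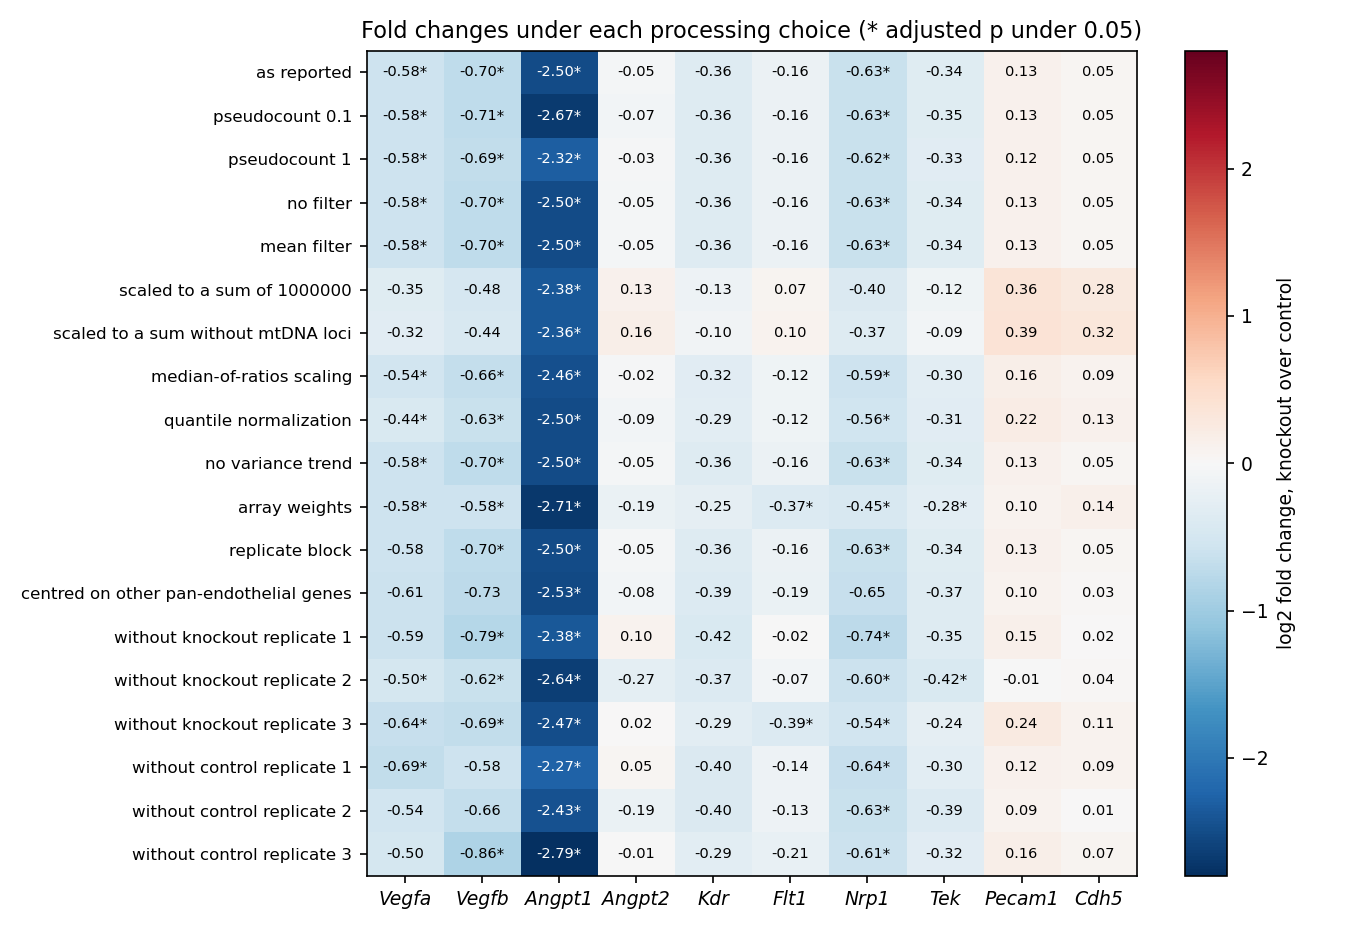
Log2 fold change, knockout over control, of each gene (columns) in the reported analysis and under 18 alternatives (rows), with colour and printed value for the fold change and a star where the limma adjusted p was under 0.05. Angpt1 has a star in every row, and the 2 scalings to one sum move all genes upward.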

How the data were processed

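The 6 libraries of total RNA (TruSeq, random hexamers, Ribo-Zero depletion, per the labels' protocols) fall into 3 per genotype. The authors deposited FPKM per locus in a file per library, per the file headers. The submitters' processing notes name HISAT 0.1.6, HISAT2 2.0.1, Cuffdiff, StringTie 1.1.0, bedtools, Cufflinks 2.2.1, Picard 1.23 and SAMtools 1.3, and the builds GRCm38 and mm10. Which tool did what, the annotation, the use of strand and any scaling between libraries are not given. No count model was applied to these values, and depth is known only as a ratio between libraries.

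From the deposited FPKM, log2(FPKM + 0.5) was taken for loci reaching 1 FPKM in 3 or more libraries. The genotypes were compared with limma 3.58.1 (R 4.3.3) by two-sided moderated tests with a trended variance prior, Benjamini-Hochberg adjustment over all 12181 loci and a threshold of 0.05, and the procedure was tested on simulated data. The 5 ratios were compared by exact permutation tests. The labels number replicates without saying that each is its own animal, so the p-values cover only the spread seen between these samples, which may be technical. The 10 genes and the other lists were chosen with earlier results of these data known. From each other list the rule names up to 4 called genes of largest change, or the 2 most abundant where none was called. Of these the text prints mainly genes whose calls were kept with any 1 library left out, a selection made with the values in view. Gene names and promoters were matched to RefSeq (GRCm38.p6), which held 32121 of the 45481 names in the files and promoters of 6 of the 10 genes. Alternatives changed the pseudocount, filter, scaling, variance model, replicate block and libraries.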

Additional observations from a re-analysis of the deposited data

How the results depend on the processing

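Of the 10 genes, 4 were lower as reported, and 1 (Angpt1) was lower with each library scaled to one sum, scaled to a sum without mtDNA loci, or centred on the other pan-endothelial genes. Over the whole table, 3229 loci were then higher and 1400 lower with scaling to one sum, 3378 and 1282 without mtDNA loci, and 1113 and 1460 with centring, against 1966 and 2377 as reported. With 1 library left out, the number of the 10 genes that were lower ranged from 2 (without control replicate 2, where Angpt1 and Nrp1 passed) to 5 (without knockout replicate 2 or 3). The loci higher then ranged from 1212 to 2153 and those lower from 1409 to 2389. With array weights 2857 loci were higher, 3367 lower, and 6 of the 10 genes lower.

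Directions changed only for genes and ratios that had not passed. Angpt2 stood at 0.13 and 0.16 (log2) with scaling to one sum and without mtDNA loci, and between -0.27 and 0.10 with 1 library left out, above 0 without knockout replicate 1 (0.10), knockout replicate 3 (0.015) or control replicate 1 (0.051). Flt1 stood at 0.067 and 0.099 with these scalings. Pecam1 ranged from -0.015 (without knockout replicate 2) to 0.24 with 1 library left out. The log2 difference in the ratio of Flt1 to Kdr ranged from -0.11 (without knockout replicate 3) to 0.41, and that of Vegfa to Vegfb from -0.11 (without control replicate 1) to 0.37. The ligand average minus that of the receptor and junction genes stayed between -0.84 and -0.66 with 1 library left out.

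No sign was seen that the replicate numbers pair the samples, though correlations over 3 libraries per group cannot settle it. Libraries of the same number had correlations of deviations from their group means of -0.083, -0.064 and -0.0063. None correlated best with its own number. With the replicate block, the fit called 1536 loci higher, 1807 lower and 3 of the 10 genes lower, Vegfa no longer passing (limma adjusted p = 0.060). The causes were not tested. Depth is known only as a ratio between libraries, so what it limits was not measured.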
